A study of Mus musculus with 6 samples.

Results

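The genes described here are 39 enzymes, transporters and regulators of glycolysis and the pentose phosphate pathway in NIH3T3, a mouse embryonic fibroblast line, out of 44702 genes or unnamed transcripts on a 1-colour microarray. They were taken by symbol from a fixed list, from the glucose transporters to the pentose phosphate enzymes and malic enzyme. The cells labelled GGCT-OE were infected with a retroviral vector (pCX4bsr) that expresses GGCT, an enzyme of glutathione breakdown, and those labelled empty with the control vector. Both groups were the same line, grown with 2% serum, with 3 arrays each from experiments numbered 1 to 3. The labels describe a stable population and do not give its number of clones, the promoter or the species of the expressed GGCT, nor whether the infection was repeated, so p-values cover only how these experiments differ among themselves. Of the 39 genes, 37 had a probe that could be named (all but Pdk3 and G6pdx), and 35 were tested. The remaining pair, the glucose transporter Slc2a3 and the muscle fructose bisphosphatase Fbp2, was not well above background on any of the 6 arrays.

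Glycolysis splits glucose to pyruvate in the cytosol, and its flux is held at the hexokinase, phosphofructokinase and pyruvate kinase steps, each of which is catalysed by isoenzymes from separate genes with different regulation. Pyruvate is then reduced to lactate by lactate dehydrogenase or oxidised in mitochondria by pyruvate dehydrogenase, which the PDK kinases switch off. The pentose phosphate pathway branches off at glucose 6-phosphate and yields NADPH, which keeps glutathione reduced, and ribose for nucleotides. Proliferating fibroblasts are known to run both routes at a high rate.

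Signal was read as the log2 processed intensity of a gene's brightest probe minus the 75th percentile of its array, so a value of 0 is that percentile. The 75th percentile lay between 380.0 and 471 intensity units, and the share of probes well above background was 54.6% to 61.7%. The mouse Ggct probe was higher with GGCT, with -0.14, 0.20 and -0.16 on the GGCT-OE arrays, against -0.57, -0.72 and -0.66 on the empty arrays. Whether it reads the vector's transcript is not known. All 10 fibroblast markers listed for this report were well above background on all 6 arrays, among them Col1a1, Col1a2, Vim and Fn1. Of the 10, 7 were lower with GGCT, where 17.3% of all genes tested were lower. Vim and Fn1 were not among the 7. The summed level of the 10 markers was 1170 to 1521 on the GGCT-OE arrays and 1707 to 2156 on the empty arrays, in multiples of the 75th percentile. The part of this shift in the members' differences was not tested. Of the markers of other cells, 2 of 6 epithelial, 2 of 4 endothelial, 2 of 4 macrophage, 0 of 4 muscle and 3 of 4 neural genes were tested. Epcam, Cdh1, Kdr, Tek, Ptprc, Adgre1, Myog, Ckm and Olig2 stayed at background throughout. The epithelial Krt18 and Krt19 and the muscle genes Myod1 and Des rose well above it on some arrays. The macrophage gene Csf1r and the neural genes Tubb3 and Snap25 did so on all 6. Other genes of these lists were higher with GGCT, namely Krt8 (2.26-fold) and Cldn4 (1.40-fold) of the epithelial, Pecam1 (1.35-fold) of the endothelial and Gfap (1.45-fold) of the neural list, while the macrophage gene Cd68 was 1.20-fold lower. Cdh5, an endothelial cadherin, was well above background on 3 of 3 GGCT-OE arrays and 0 of 3 empty arrays, at least 2.18-fold higher. The epithelial sum was 18.9 to 22.2 on the GGCT-OE arrays and 13.6 to 16.2 on the empty arrays. Most of it was Cldn4, with mean log2 signals of 4.34 and 3.85. The endothelial sum, which includes Cdh5, was 0.235 to 0.277 on the GGCT-OE arrays and 0.136 to 0.174 on the empty arrays. The other sums overlapped between the groups. In the same order they were 2.02 to 3.38 and 1.87 to 2.56 for macrophage, 15.2 to 21.6 and 15.8 to 22.3 for neural, and 0.051 to 0.117 and 0.092 to 0.11 for muscle genes. Slide 1, scanned first, held both arrays of experiment 1, and slide 2 those of experiments 2 and 3.

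The phosphofructokinase genes Pfkp and Pfkl went in opposite directions in GGCT-expressing cells relative to empty-vector cells. Pfkp, the platelet-type phosphofructokinase, fell 6.08-fold, while Pfkl, the liver type, rose 1.93-fold. Ldhb, the heart-type lactate dehydrogenase subunit, rose 2.41-fold, and Ldha, the muscle type, 1.35-fold. The lower glycolytic genes Gapdh, Pgk1 and Pgam1 rose by 1.38- to 1.46-fold, and Taldo1 and Me1 of the NADPH-linked branch fell by 1.51- and 1.47-fold. In all, 11 of the 35 tested genes were higher and 4 lower (limma, adjusted p under 0.05), and 20 did not pass the threshold. Over all 23774 genes tested, 17.5% were higher and 17.3% lower, 34.8% in all, and the 15 of 35 members called are to be read against that background. The median difference of the 35 genes was -0.03, and that of all genes tested 0.02. The arrays read bulk RNA, in which fewer cells with a transcript and less of it per cell cannot be told apart.

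The title numbers were taken to pair the arrays (the check and its limit are given with the processing). Blocking on the experiment gave 13 higher and 8 lower members, where 27.3% of all genes were higher and 26.1% lower, 53.4% in all. The 6 added were Slc16a1, Hk2, Pfkm, Pfkfb4, Pgd and Tkt, and none of the 15 was lost. All 15 called members had 1 sign in all 3 experiments and groups that did not overlap. The calls were made on the same 6 arrays, so this is not separate support for them. Over all 35 tested members the groups did not overlap for 19, where 49.3% of all genes tested had groups that did not overlap. An exact 2-sided permutation test gives p = 0.1 for such a gene, the smallest that 3 arrays against 3 allow. Without replicate 2 of both groups the called members were Pfkp, Ldhb, Pdk1, Pfkfb1 and Taldo1. Without replicate 3 they were Pfkp and Ldhb, and only these 2 of the 15 stayed past the threshold in all 22 alternatives run.

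**Figure D1:**
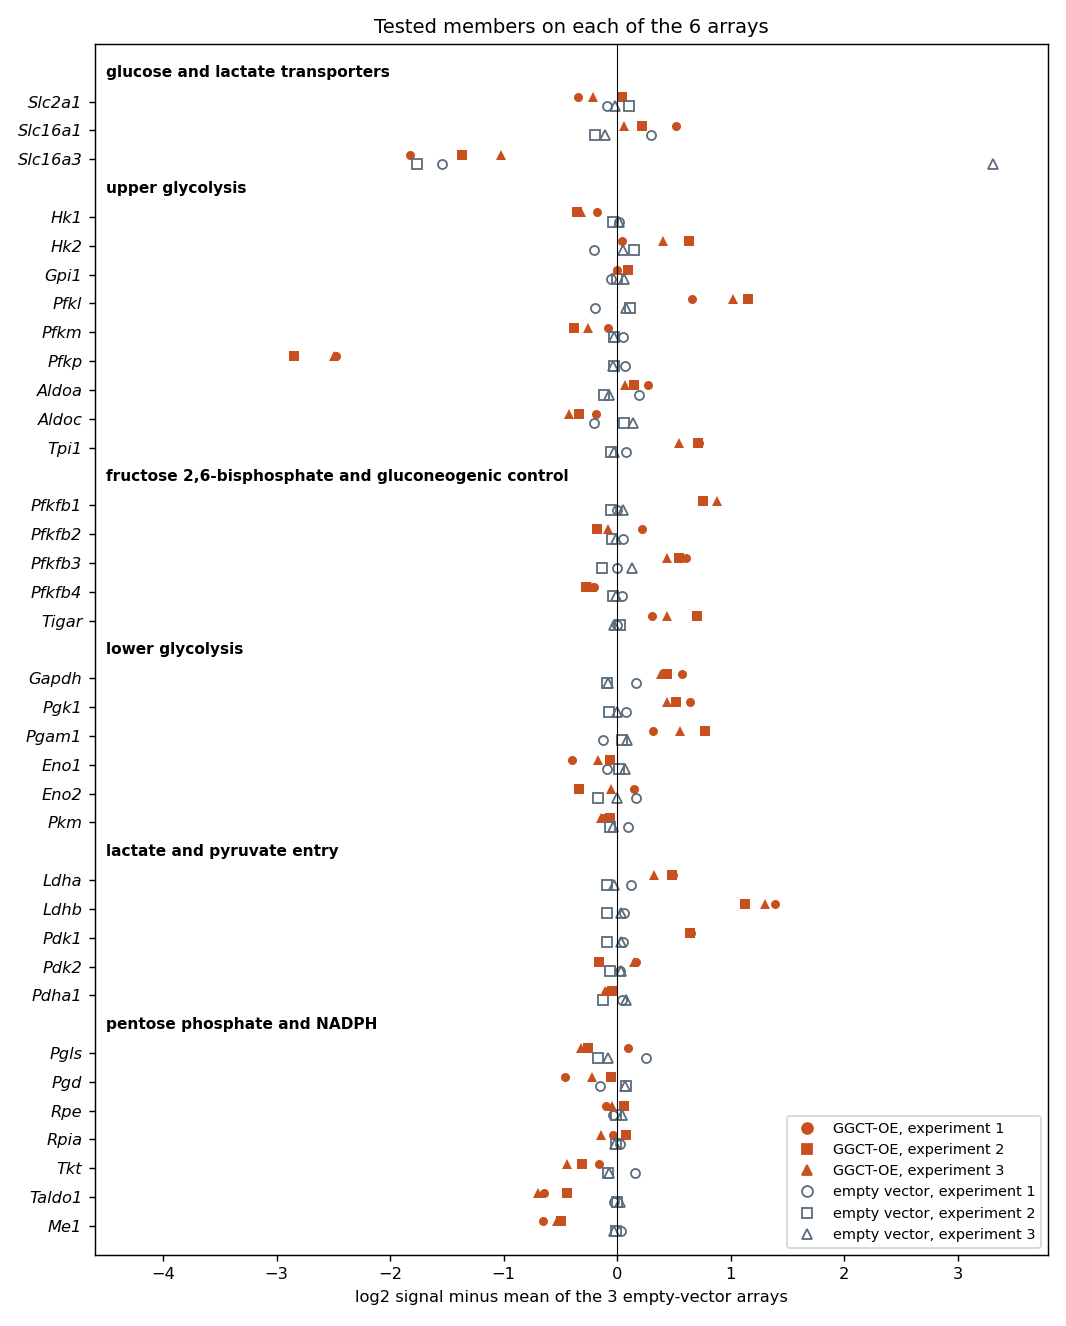
Each point is the log2 signal of a gene on 1 array minus the mean of the 3 empty-vector arrays, with GGCT-OE arrays filled and empty-vector arrays open, and the symbol giving the experiment. Genes are grouped by pathway branch. Pfkp lies to the left of 0 on all GGCT-OE arrays and Ldhb and Pfkl to the right, and 1 empty-vector array of Slc16a3 stands apart from its other 5 arrays.

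Phosphofructokinase commits glucose to glycolysis, and its 3 subunit genes moved differently. Pfkp read -1.09, -1.46 and -1.11 on the GGCT-OE arrays, against 1.45, 1.35 and 1.35 on the empty arrays. The 2 groups were far apart, with SDs of 0.21 among the GGCT-OE arrays and 0.06 among the empty arrays. The difference was -2.60 ± 0.12 (SE, n = 3 against 3; limma, adjusted p = 7.52e-05), with -2.54 on slide 1 and -2.64 on slide 2. A second probe of Pfkp differed by -2.46. With normexp background correction the difference was -2.24. Pfkl read 1.80, 2.29 and 2.16 on the GGCT-OE arrays, against 0.94, 1.25 and 1.21 on the empty arrays. Every GGCT-OE array was above every empty array, by 0.95 ± 0.16 on average (limma, adjusted p = 0.00624). The call did not hold with experiment 2 left out (0.90, adjusted p = 0.0660), nor with experiment 3 left out (0.95, adjusted p = 0.0957). Pfkm, the muscle type, read 3.29, 2.99 and 3.11 on the GGCT-OE arrays, against 3.42, 3.34 and 3.34 on the empty arrays. Its difference of -0.24 (95% interval -0.49 to 0.01, adjusted p = 0.124) passed with the experiment number as a block (adjusted p = 0.0439).

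The 250 bases before the start sites of the 2 oppositely moving phosphofructokinase genes are shown because these genes carry the largest isoenzyme contrast. They are RefSeq promoters of build GRCm38.p6, both on the minus strand, at chr10:78009808-78010057 for Pfkl and chr13:6648772-6649021 for Pfkp. Capitals would mark ACGTG or its complement CACGT, the core of hypoxia response elements and part of E-boxes, and neither stretch holds one.
Pfkl: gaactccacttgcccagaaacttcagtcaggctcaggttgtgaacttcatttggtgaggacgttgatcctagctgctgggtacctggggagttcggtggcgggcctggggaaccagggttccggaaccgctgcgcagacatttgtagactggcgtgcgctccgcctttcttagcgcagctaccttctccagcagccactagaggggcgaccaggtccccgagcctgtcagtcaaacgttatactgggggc
Pfkp: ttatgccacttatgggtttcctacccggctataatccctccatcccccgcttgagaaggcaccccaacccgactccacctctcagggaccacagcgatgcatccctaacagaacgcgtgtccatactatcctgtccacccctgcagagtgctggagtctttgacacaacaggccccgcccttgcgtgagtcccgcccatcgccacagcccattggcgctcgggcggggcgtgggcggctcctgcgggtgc

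**Figure D2:**
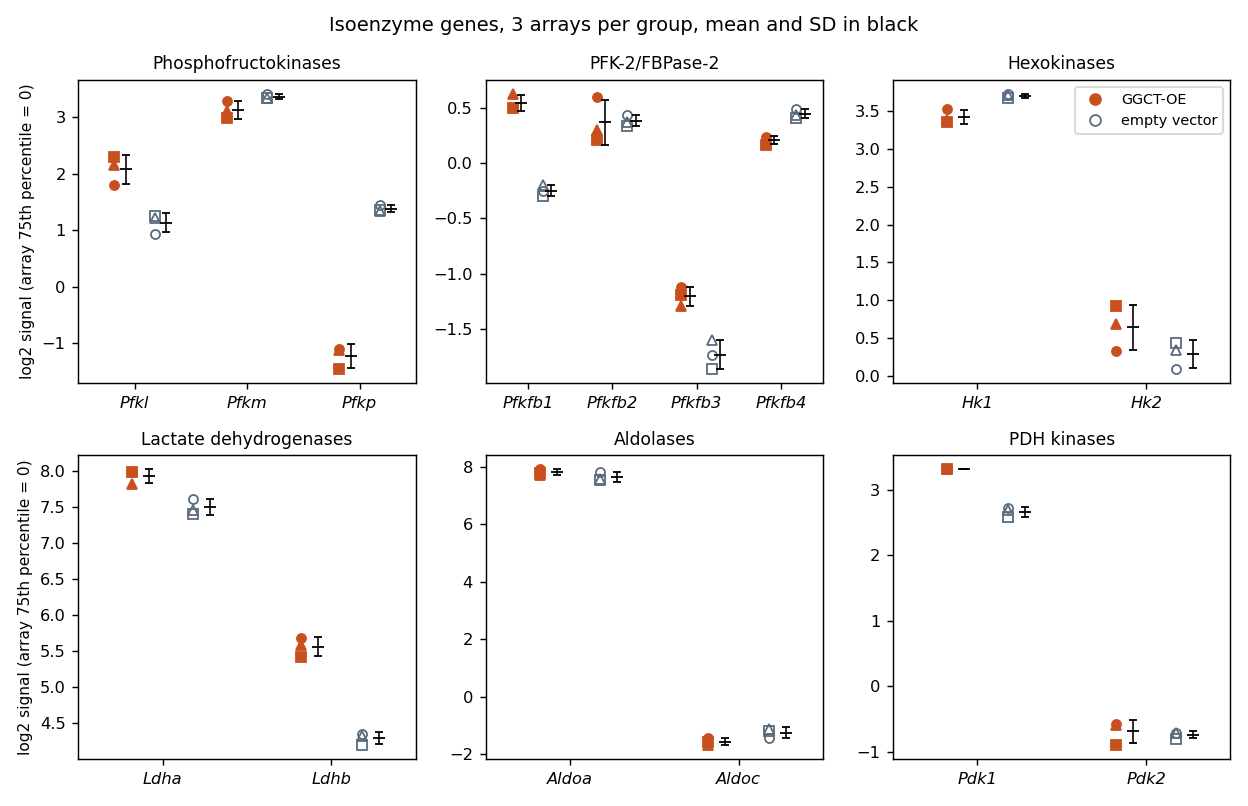
Points are log2 signals relative to the 75th percentile of each array for 6 sets of isoenzyme genes, with GGCT-OE arrays filled at the left and empty-vector arrays open at the right of each gene, and black marks giving mean and SD (n = 3). Heights compare groups within a gene and not genes with each other. Pfkl and Pfkp part in opposite directions, and Ldhb moves further than Ldha.

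The PFKFB enzymes make and remove fructose 2,6-bisphosphate, the strongest activator of phosphofructokinase. Of the 4 genes 2 were higher, where 17.5% of all genes tested were higher. Pfkfb1 read 0.50, 0.50 and 0.63 on the GGCT-OE arrays, against -0.25, -0.30 and -0.20 on the empty arrays. All GGCT-OE arrays were higher, by 0.79 ± 0.08 (limma, adjusted p = 0.00114), and a second probe differed by 0.66. Without both arrays of replicate 3 the adjusted p was 0.0511. Pfkfb3, whose product mainly acts as a kinase, read -1.13, -1.19 and -1.30 on the GGCT-OE arrays, against -1.73, -1.87 and -1.60 on the empty arrays. That is 0.53 ± 0.10 higher without overlap (limma, adjusted p = 0.0106), and 0.32 with normexp background. The call ended when experiment 2 (0.45, adjusted p = 0.109) or 3 (0.64, adjusted p = 0.0765) was left out, and when dim probes were kept in the fit (adjusted p = 0.0536). Pfkfb2 read 0.60, 0.21 and 0.30 on the GGCT-OE arrays, against 0.44, 0.33 and 0.37 on the empty arrays, and these overlap. Its difference had a 95% interval of -0.31 to 0.28. For Pfkfb4 the signals were 0.24, 0.17 and 0.22 on the GGCT-OE arrays, against 0.49, 0.41 and 0.43 on the empty arrays. The groups did not overlap, and the difference of -0.24 ± 0.07 passed with the experiment number as a block (adjusted p = 0.0210) and not without it (limma, adjusted p = 0.0537).

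Tigar, a phosphatase that lowers fructose 2,6-bisphosphate and so turns glucose toward the pentose phosphate pathway, was higher by 0.48 ± 0.12 (limma, adjusted p = 0.0226). It read -0.35, 0.04 and -0.22 on the GGCT-OE arrays, against -0.65, -0.63 and -0.68 on the empty arrays. The lowest GGCT-OE array was above all empty arrays, and the spread was wider with GGCT. The call did not hold without GGCT-OE replicate 3 (0.51, adjusted p = 0.0650), nor without empty replicate 1 (0.48, adjusted p = 0.0556), 2 (0.50, adjusted p = 0.0672) or 3 (0.47, adjusted p = 0.0840), nor with a median shift in place of the percentile (0.46, adjusted p = 0.0665).

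Among the other enzymes of upper glycolysis, triose phosphate isomerase rose and hexokinase 1 fell slightly. Tpi1 read 6.35, 6.34 and 6.17 on the GGCT-OE arrays, against 5.70, 5.57 and 5.59 on the empty arrays. The difference was 0.66 ± 0.09 (limma, adjusted p = 0.00297), and its 3 probes differed by 0.65 to 0.73. It did not pass when experiment 2 (0.61, adjusted p = 0.0636) or 3 was left out (0.70, adjusted p = 0.0651). Hk1, the hexokinase of most tissues, read 3.53, 3.35 and 3.39 on the GGCT-OE arrays, against 3.72, 3.67 and 3.72 on the empty arrays. Its difference was small, -0.28 ± 0.08 (limma, adjusted p = 0.0439). Leaving out any array other than GGCT-OE replicate 1 took the adjusted p to between 0.101 and 0.148. With the mean of its 2 probes the difference was 0.13. The second probe was dim, well above background on 2 of 3 GGCT-OE arrays and 1 of 3 empty arrays. Hk2, the inducible hexokinase, read 0.33, 0.92 and 0.69 on the GGCT-OE arrays, against 0.09, 0.44 and 0.34 on the empty arrays. The groups overlapped, yet each GGCT-OE array exceeded the empty array of its own experiment. The difference of 0.36 ± 0.18 had an adjusted p of 0.175 (limma), and 0.0170 with the experiment number as a block.

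The aldolases and glucose phosphate isomerase did not pass the threshold. Aldoa, which cleaves fructose 1,6-bisphosphate in most cells, read 7.91, 7.78 and 7.70 on the GGCT-OE arrays, against 7.83, 7.52 and 7.57 on the empty arrays, and the groups overlapped. Quantile normalization gave 0.30 (adjusted p = 0.0221) in place of 0.16. Aldoc, the brain type, read -1.44, -1.59 and -1.68 on the GGCT-OE arrays, against -1.46, -1.19 and -1.11 on the empty arrays. Its 2 probes went in opposite directions, -0.32 and 0.67, the second one above background on 1 of the 3 empty arrays. Gpi1, which converts glucose 6-phosphate to fructose 6-phosphate, differed by 0.03 (95% interval -0.17 to 0.22).

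In lower glycolysis the 3 enzymes from glyceraldehyde 3-phosphate to 2-phosphoglycerate rose, and those after them did not pass the threshold. Gapdh, which reduces NAD+ at this step, read 8.34, 8.21 and 8.15 on the GGCT-OE arrays, against 7.93, 7.68 and 7.69 on the empty arrays. The difference was 0.47 ± 0.11 (limma, adjusted p = 0.0191), and its 6 probes, all well above background, differed by 0.45 to 0.60. Without GGCT-OE replicate 2 the adjusted p was 0.0514, without empty replicate 2 it was 0.0715, and without empty replicate 3 it was 0.0806. Pgk1, the first ATP-forming enzyme of the pathway, read 8.64, 8.52 and 8.45 on the GGCT-OE arrays, against 8.08, 7.93 and 7.998 on the empty arrays. It was 0.53 ± 0.09 higher with no overlap (limma, adjusted p = 0.00680), and did not pass when experiment 2 (0.51, adjusted p = 0.0897) or 3 was left out (0.58, adjusted p = 0.101). Pgam1, the phosphoglycerate mutase, read 6.54, 6.99 and 6.77 on the GGCT-OE arrays, against 6.09, 6.26 and 6.30 on the empty arrays. Its difference of 0.55 ± 0.14 (limma, adjusted p = 0.0249) was 0.53 on a second probe. Leaving out any array other than GGCT-OE replicate 1 took its adjusted p to between 0.0582 and 0.0799, and a median shift to 0.0624.

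Enolase and pyruvate kinase, the last enzymes of the pathway, did not pass. Eno1, the enolase of most tissues, read 7.52, 7.85 and 7.75 on the GGCT-OE arrays, against 7.83, 7.93 and 7.99 on the empty arrays, a difference of -0.21 (95% interval -0.48 to 0.06). Eno2, the neuronal type, read 2.76, 2.27 and 2.56 on the GGCT-OE arrays, against 2.78, 2.44 and 2.60 on the empty arrays. The 2 groups overlapped for both enolases. Pkm, the pyruvate kinase of proliferating cells, differed by -0.11 (95% interval -0.31 to 0.09), and its splice forms were not separated here.

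The 250 bases before the Pgk1 start are shown as the stretch of a risen glycolytic gene that does hold the motif (RefSeq, GRCm38.p6, plus strand, chrX:106186850-106187099). Capitals mark its 2 matches to ACGTG or CACGT.
Pgk1: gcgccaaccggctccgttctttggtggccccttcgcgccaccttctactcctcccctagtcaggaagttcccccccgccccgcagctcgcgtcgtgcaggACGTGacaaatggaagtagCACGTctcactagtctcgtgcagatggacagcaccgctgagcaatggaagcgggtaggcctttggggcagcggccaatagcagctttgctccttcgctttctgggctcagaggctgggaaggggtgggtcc

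At the pyruvate branch point both lactate dehydrogenase genes and the kinase Pdk1 rose. Ldhb read 5.68, 5.42 and 5.59 on the GGCT-OE arrays, against 4.35, 4.20 and 4.33 on the empty arrays. The groups were separated by more than 1 log2 unit, with a difference of 1.27 ± 0.10 (limma, adjusted p = 0.000467). A second probe differed by 1.31, and slides 1 and 2 alone gave 1.33 and 1.24. Ldha read 7.99, 7.98 and 7.82 on the GGCT-OE arrays, against 7.62, 7.40 and 7.46 on the empty arrays. It was higher by 0.44 ± 0.10 (limma, adjusted p = 0.0175), a smaller difference than that of Ldhb, and another probe differed by 0.64. Its adjusted p was 0.0559 without GGCT-OE replicate 2, 0.0671 without empty replicate 2 and 0.0743 without empty replicate 3. Pdk1, which phosphorylates and inhibits pyruvate dehydrogenase, read 3.31 on each of the 3 GGCT-OE arrays, against 2.72, 2.57 and 2.70 on the empty arrays. That is 0.65 ± 0.08 higher (limma, adjusted p = 0.00205), lost with experiment 3 left out (0.66, adjusted p = 0.0718). Of its 4 probes 3 differed by 0.64 to 0.84 and 1 by 0.10. Pdk2, a related kinase, read -0.58, -0.90 and -0.59 on the GGCT-OE arrays, against -0.72, -0.80 and -0.71 on the empty arrays, with overlap and a difference of 0.05 (95% interval -0.22 to 0.33). Pdha1, the dehydrogenase subunit that these kinases modify, differed by -0.08 (95% interval -0.29 to 0.13).

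The 250 bases before the starts of the lactate dehydrogenase genes are given because both genes were higher (RefSeq, GRCm38.p6). The Ldha stretch is the first of 2 listed starts, on the plus strand at chr7:46845554-46845803, and Ldhb lies on the minus strand at chr6:142507958-142508207. Capitals mark ACGTG or CACGT, with 5 overlapping matches in Ldha, among them 2 copies of CACGTG, and 0 in Ldhb. The second listed Ldha start, at chr7:46846832-46847081, has 0 matches too and is not printed.
Ldha: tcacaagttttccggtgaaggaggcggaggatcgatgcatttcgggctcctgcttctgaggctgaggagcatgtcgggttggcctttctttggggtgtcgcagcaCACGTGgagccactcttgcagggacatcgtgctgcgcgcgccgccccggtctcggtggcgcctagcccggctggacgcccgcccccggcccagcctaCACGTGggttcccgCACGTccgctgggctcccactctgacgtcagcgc
Ldhb: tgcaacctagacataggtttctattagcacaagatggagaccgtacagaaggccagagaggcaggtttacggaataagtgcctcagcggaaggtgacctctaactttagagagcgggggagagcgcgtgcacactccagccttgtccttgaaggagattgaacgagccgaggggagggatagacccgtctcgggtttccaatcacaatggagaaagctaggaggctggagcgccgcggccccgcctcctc

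Of the 3 transporters tested 0 passed the threshold (limma), where 34.8% of all genes tested passed in either direction. At an unadjusted p under 0.05 the count was 0 too, where 44.9% of all genes passed. Slc2a1, the basal glucose transporter GLUT1, read 4.11, 4.49 and 4.24 on the GGCT-OE arrays, against 4.37, 4.56 and 4.44 on the empty arrays, a difference of -0.17 (95% interval -0.47 to 0.13). Slc16a1, the lactate and pyruvate carrier MCT1, read 2.75, 2.44 and 2.29 on the GGCT-OE arrays, against 2.53, 2.03 and 2.12 on the empty arrays. Each GGCT-OE array exceeded that of its own experiment, and the difference of 0.27 passed with the experiment number as a block (adjusted p = 0.0395) and not without it (limma, adjusted p = 0.303). Slc16a3, the lactate exporter MCT4, read -4.62, -4.16 and -3.82 on the GGCT-OE arrays, against -4.34, -4.56 and 0.52 on the empty arrays. A single probe reads it, and empty replicate 3 stands far above the other 5 arrays, so the difference of -1.41 ± 1.35 becomes 0.25 (limma, adjusted p = 0.545) without that array.

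Of 6 pentose phosphate genes tested, 0 rose and 1, Taldo1, fell, and so did Me1, listed with them as a source of NADPH (limma, where 17.5% of all genes were higher and 17.3% lower). At an unadjusted p under 0.05 the count was 3 of these 7, all lower, where 44.9% of all genes passed in either direction. Taldo1, the transaldolase of the non-oxidative arm, read 5.74, 5.94 and 5.69 on the GGCT-OE arrays, against 6.35, 6.38 and 6.41 on the empty arrays. It was lower by 0.59 on average (-0.59 ± 0.09, limma, adjusted p = 0.00511), and a second probe differed by -0.64. Without both arrays of replicate 3 the adjusted p was 0.116. Me1, the cytosolic malic enzyme, which yields NADPH outside the pathway, read 3.32, 3.47 and 3.44 on the GGCT-OE arrays, against 4.01, 3.96 and 3.94 on the empty arrays. The groups were clearly apart, at -0.56 ± 0.08 (limma, adjusted p = 0.00376) and -0.44 on a second probe, and the call was lost with experiment 2 (-0.59, adjusted p = 0.0559) or 3 left out (-0.59, adjusted p = 0.0912).

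The other 5 genes of this branch differed by between -0.30 and -0.03. Tkt, the transketolase, read 5.79, 5.63 and 5.51 on the GGCT-OE arrays, against 6.10, 5.86 and 5.87 on the empty arrays, without overlap. Its difference of -0.30 ± 0.12 passed with the experiment number as a block (adjusted p = 0.0160). Without a block the adjusted p was 0.0932 (limma), and only array weights took it past the threshold (0.00983). Pgd, the second NADPH-forming dehydrogenase of the oxidative arm, differed by -0.25, likewise past the threshold with the block (adjusted p = 0.0345). Without a block the adjusted p of Pgd was 0.203 (limma), and only array weights took it past the threshold (0.0253). Pgls, the lactonase between the dehydrogenases, differed by -0.16 (95% interval -0.55 to 0.23). Rpe and Rpia, which interconvert the pentose phosphates, differed by -0.03 each, with 95% intervals of -0.23 to 0.17 and -0.25 to 0.18. With the block 4 of the 7 were lower and 0 higher, where 26.1% of all genes were lower and 27.3% higher. The median of the 7 was -0.25, against -0.17 for the transporters, 0.03 for upper glycolysis, 0.19 for lower glycolysis, 0.44 for the lactate and pyruvate genes and 0.48 for the fructose 2,6-bisphosphate genes.

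**Figure D3:**
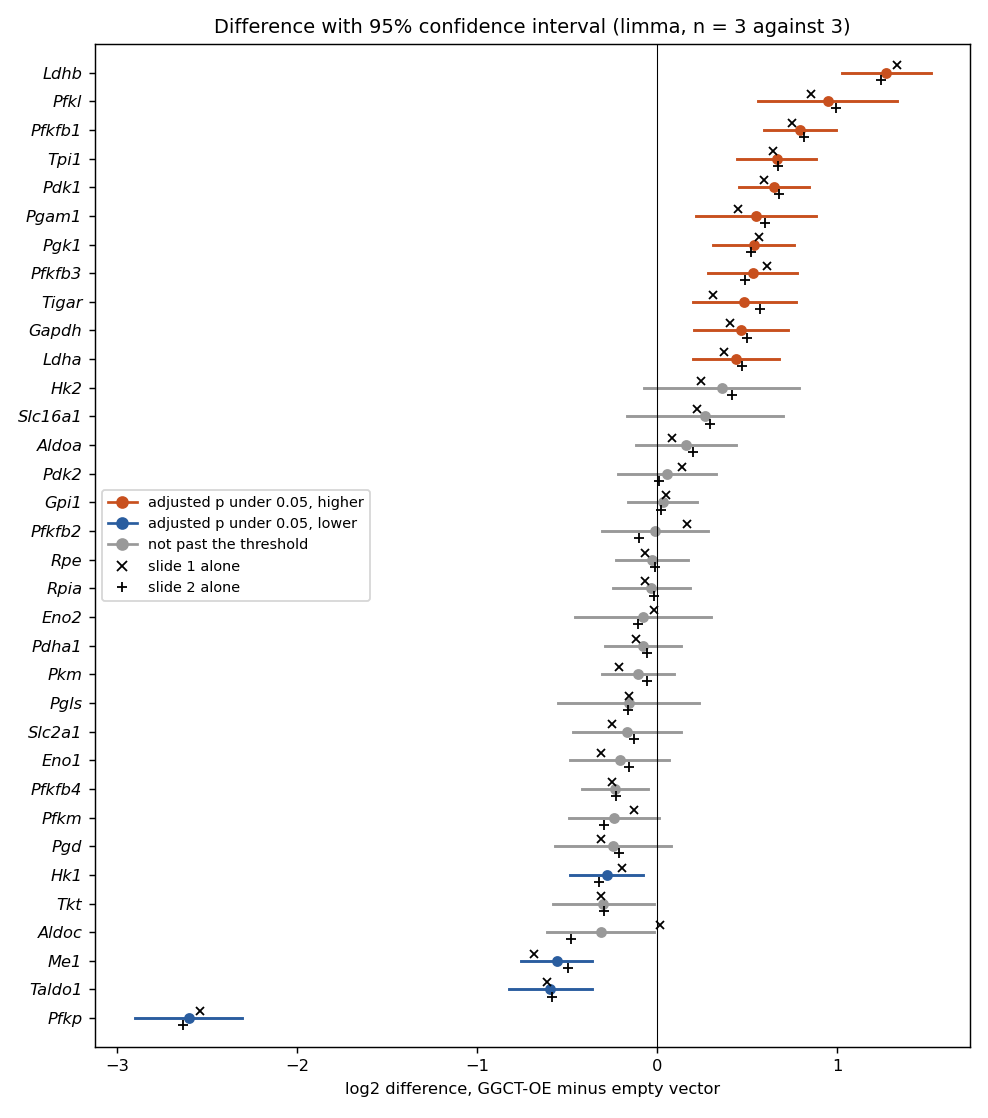
Points are log2 differences (GGCT-OE minus empty vector) with 95% intervals from limma for 34 tested members, Slc16a3 left out for its scale, and crosses and plus signs give slides 1 and 2 alone. The 11 higher genes are led by Ldhb at 1.27 and the 4 lower ones by Pfkp at -2.60, and the slides give opposite signs for Pfkfb2 and Aldoc.

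Whether isoenzyme genes moved apart was measured as the log2 ratio of 2 genes within each array, compared between the groups. Of 15 pairs listed, 12 could be measured. The ratio of Pfkl to Pfkp changed by 3.55, an 11.7-fold shift toward Pfkl, with 3.30 ± 0.43 on the GGCT-OE arrays and -0.25 ± 0.22 on the empty arrays (SD, n = 3 each). Pfkm against Pfkp changed by 2.36 (5.15-fold), and Pfkl against Pfkm by 1.19 (2.28-fold). The ratio of Ldha to Ldhb fell by 0.84, with 2.37 ± 0.18 on the GGCT-OE arrays and 3.20 ± 0.06 on the empty arrays. Hk1 against Hk2 changed by -0.64, or by -0.22 with the mean of each gene's probes, which takes in the dim second probe of Hk1. Pdk1 against Pdk2 changed by 0.59, and Pfkfb3 against Pfkfb4 by 0.76. Smaller shifts were those of Pfkfb2 against Pfkfb3 (-0.54), Aldoa against Aldoc (0.48) and Pfkfb2 against Pfkfb4 (0.22), and the last 2 came to -0.01 and 0.0008 with the mean of each gene's probes. These 10 pairs did not overlap between groups and moved one way in all 3 experiments, with an exact 2-sided permutation p = 0.1, the smallest possible here, and 0.12 adjusted over the 12 pairs. Eno1 against Eno2 changed by -0.13 (exact permutation p = 0.7), and Slc16a1 against Slc16a3 by 1.67 (exact permutation p = 0.5), or -0.04 without empty replicate 3. How often other gene pairs lack overlap was not measured, and 49.3% of single genes tested had groups that did not overlap. The 10 pairs are not independent. The ratios of Pfkl, Pfkm and Pfkp share genes, as do those of Pfkfb2, Pfkfb3 and Pfkfb4. All of the 10 but Aldoa against Aldoc and Pfkfb2 against Pfkfb4 hold a called member, so they are not separate support for those calls. A changed ratio shows unequal change and not that either gene stayed level.

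**Figure D4:**
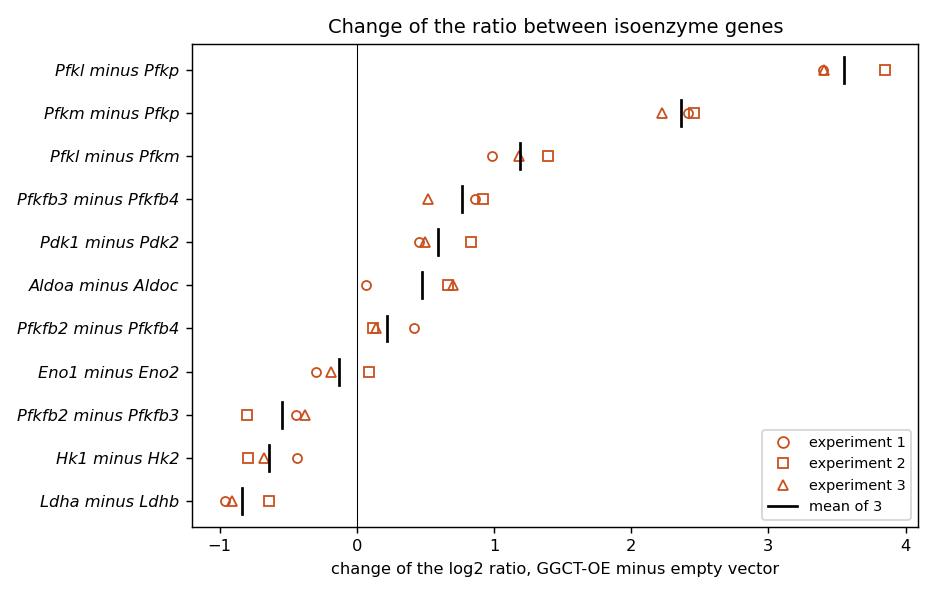
Each symbol is the change of a log2 ratio between isoenzyme genes in 1 experiment (GGCT-OE array minus the empty-vector array of the same number), and black bars are means of 3. Slc16a1 against Slc16a3 is left out for its scale. Pfkl minus Pfkp and Pfkm minus Pfkp lie furthest to the right, and Eno1 minus Eno2 straddles 0.

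The motif shown in the promoters above was counted over the 250 bases before each listed start, on both strands. It was present for 16 of the 38 members with a promoter in the table (42.1%), and for 18.5% of the 27025 genes in the table and 23.9% of the tested genes in it. Among the higher members 4 of 11 had it (Ldha, Pfkfb3, Pgam1 and Pgk1), among the lower ones 1 of 4 (Me1), and among those that did not pass the threshold 9 of 20, with Slc2a1, Hk2, Aldoa and Pkm among them. CACGTG, which contains the motif, was present for 7 of the 38 (18.4%), for 6.86% of all genes in the table and for 9.47% of the tested genes. The 38 members had 59 listed promoters and the 11182 tested genes 14148, and a gene with more promoters has more chances of a match. Counted by promoter, the motif was present in 33.9% for members and 20.6% for tested genes, and CACGTG in 11.9% and 7.9%. A match of these letters is not a binding site, and no match speaks only of this window.

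Neighbouring steps of carbohydrate metabolism were taken from a further list of 69 genes, of which 54 were tested, 11 of them higher and 14 lower (median difference -0.15), where 17.5% of all genes were higher and 17.3% lower. Among the 52 well above background on all 6 arrays, 10 were higher and 14 lower. Pck2, the mitochondrial enzyme that makes phosphoenolpyruvate, fell 3.19-fold (limma, adjusted p = 8.13e-05), and Eno3, the muscle enolase, fell 2.63-fold (adjusted p = 0.000207). Gfpt2, which opens the hexosamine pathway, rose 3.05-fold (adjusted p = 0.000147), the NADP-linked Idh2 1.71-fold (adjusted p = 0.000807) and the ribose phosphate enzyme Prps1 1.76-fold (adjusted p = 0.00346). Hkdc1, a hexokinase relative, was not well above background on the empty arrays and was at least 1.83-fold higher. It entered the fit through the GGCT-OE arrays alone, where it is high, so its p is not given. For such a bound the dim group was set, array by array, at the lowest signal well above background, or at the probe's own signal where that was higher. Chosen after their values were seen, Pdk4, the starvation-induced kinase of pyruvate dehydrogenase, stood at 0.51 ± 0.24 on the GGCT-OE arrays and 2.60 ± 0.09 on the empty arrays (4.25-fold lower, limma, adjusted p = 0.000251), opposite to Pdk1. Khk, the fructokinase, was 2.76-fold lower (adjusted p = 0.000408).

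Of 10 regulators listed, 9 were tested, with 0 higher and 4 lower, where 17.5% of all genes were higher and 17.3% lower (limma). At an unadjusted p under 0.05 the count was 6 of 9, Ppargc1a among them, where 44.9% of all genes passed. Ppargc1a, a coactivator of mitochondrial genes, was not well above background on any GGCT-OE array and was at least 9.69-fold lower. It entered the fit through the empty arrays alone, where it is high, so its p is likewise not given. Its place in both counts above rests on that entry. Of the other 8 regulators 3 were lower. Arrdc4, a glucose-induced arrestin that limits glucose uptake, fell 5.51-fold (adjusted p = 8.62e-05). Its relative Txnip, named after its value was seen like the 3 that follow, fell 1.65-fold (adjusted p = 0.0326). Nfe2l2, the factor NRF2, was 1.49-fold lower (limma, adjusted p = 0.00274). Taldo1, Me1, Tkt and Pgd are known NRF2 targets, of which Tkt and Pgd passed the threshold only with a block or with array weights. The part of Nfe2l2 in their differences was not tested. Hif1a, the hypoxia factor, differed by 0.31 (adjusted p = 0.0621) and Myc by -0.39 (adjusted p = 0.0776), and neither passed the threshold.

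Since neighbouring genes on a chromosome can move together, each member was set beside up to 25 tested neighbours on each side. The neighbours' median was above 0 for 11 of 11 higher members, and below 0 for 3 of 4 lower ones, all but Hk1. Over all named genes tested it was above 0 for 70.2% of the higher and below 0 for 68.4% of the lower ones. The 37 neighbours of Pfkp had a median of -0.38, with 4 of them above 0, and the 50 neighbours of Pfkfb1 and of Pgk1, both on the X chromosome, had medians of 0.32 and 0.27. These 3 lie outside the range between the 5th and 95th percentiles of such windows, -0.33 to 0.23. Around Pfkl (0.04), Tpi1 (0.02), Gapdh (0.03) and Pfkfb3 (0.03) the medians were close to 0, and around Ldhb and Pdk1 they were 0.12 and 0.13. Tpi1, Gapdh, Eno2 and Tigar lie on the same stretch of chromosome 6 and share neighbours. The part of a shared regional shift in the members' differences was not tested.

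**Figure D5:**
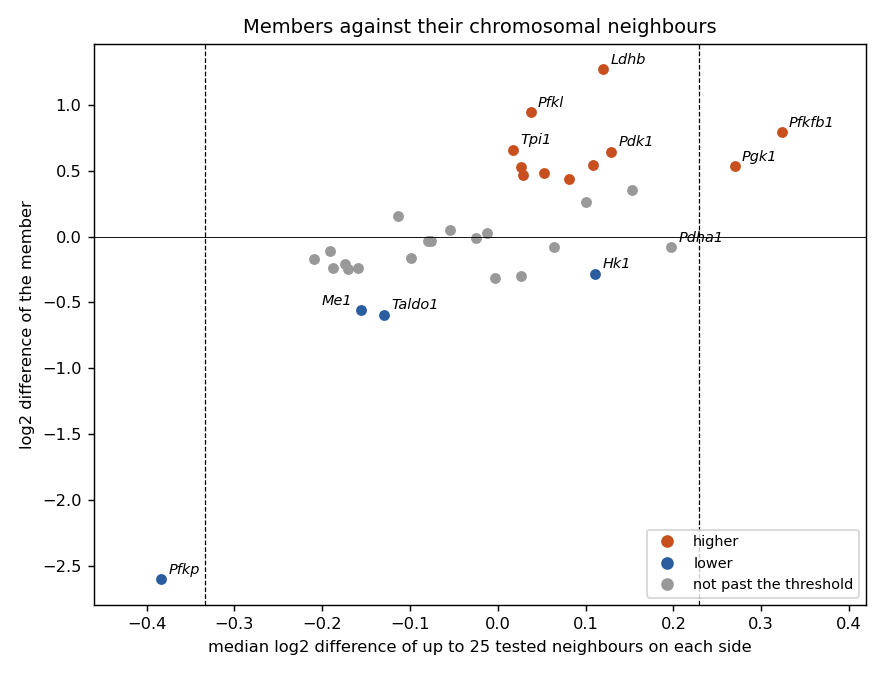
Each point is a tested member (34, Slc16a3 left out), with its log2 difference on the vertical axis and the median log2 difference of up to 25 tested neighbours on each side on the horizontal axis. Dashed lines are the 5th and 95th percentiles of such medians over all named tested genes. Pfkp lies left of the lower line, Pfkfb1 and Pgk1 right of the upper one, and the other members between them.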

How the data were processed

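The deposited files hold the scanner output of 6 Agilent 1-colour arrays, and per the file headers the intensity of each spot was extracted with Agilent Feature Extraction 12.1.0.3. A deposited series table holds log2 values that equal the log2 processed intensity minus a constant per array (column medians -3.87 to -3.69), and it was used as a check. From the processed intensity, 3671 control spots per array and 578 outlier spots were left out, spots of a probe were averaged, and each array's 75th percentile was subtracted on the log2 scale. Of the probes, 61.0% could be named through RefSeq accessions. A gene was read by its brightest probe and tested where every array of at least 1 group had it well above background, with limma 3.58.1 (R 4.3.3) and Benjamini-Hochberg adjustment over all 23774 genes. Single values were tested by exact permutation.

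The experiment numbers were taken to pair the arrays, since deviations from the group means correlated at 0.73, 0.45 and 0.36 between arrays of the same number. Arrays of different numbers on slide 2 correlated at 0.30 and 0.34, and experiment 1 was alone on slide 1. The check therefore does not tell pairing by experiment from a shared slide. Alternatives were the scaling, the background, the filter, the probe rule, the variance model, array weights, blocks, slide 2 alone and each array or experiment left out. The members, lists and tests were chosen with earlier results of these data known. Values on each array are given for isoenzymes and called members, and of the other pathway genes the 4 called genes per direction with the smallest p are named. The fit was also run on simulated data with noise independent between arrays. Those data lack the correlated deviations given above, so the run does not cover them.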

Additional observations from a re-analysis of the deposited data

How the results depend on the processing

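Blocking on the experiment number, which was taken to pair the arrays, gave 13 members higher and 8 lower. Among all genes tested it gave 6490 higher and 6195 lower. With the slide as a block 9 members and 6191 genes were lower and 6562 genes higher, and with array weights 10 members and 6193 genes were lower and 6633 higher. With no filter on dim probes 6 members were higher, with 2218 genes higher and 2493 lower. Leaving out arrays gave 1 to 12 members higher and 1 to 5 lower, with fewer arrays in each fit. Among all genes it gave 692 to 4573 higher and 1089 to 4539 lower. The upper counts of genes came without experiment 1, which left slide 2 alone and gave 12 members higher and 5 lower. Normexp background gave a change of 3.14 for Pfkl against Pfkp and 2.03 for Pfkm against Pfkp. With arrays left out these were 3.33 to 3.76 and 2.32 to 2.43, and Pfkl against Pfkm was 1.01 to 1.41. Signs turned for Hk1, and for differences and pairs that had not passed, Aldoa against Aldoc among them. With the mean of probes Hk1 was 0.133, Aldoc 0.175 and Aldoa against Aldoc -0.0148. The second probes of Hk1 and Aldoc were not well above background on all 6 arrays. Normexp gave 0.0276 for Pfkfb2 and 0.0081 for Rpe, and array weights -0.0209 for Gpi1. With single arrays or experiments left out, Slc16a3 ranged over -2.31 to 0.249, Gpi1 over -0.0050 to 0.0722, Pfkfb2 over -0.1296 to 0.0664, Eno2 over -0.1934 to 0.0499, Pdk2 over -0.0036 to 0.1568, Rpe over -0.0774 to 0.0060, and Rpia over -0.0937 to 0.0185. Slc16a1 against Slc16a3 ranged over -0.0360 to 2.5958 and Eno1 against Eno2 over -0.3318 to 0.0767. The cause was not tested. The number of arrays limits the precision, and the difference of Slc16a3 rests on empty replicate 3.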
